A study of Mus musculus with 6 samples.

Results

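Transcripts of the cytosolic and mitochondrial heat shock proteins were compared between the livers of group-housed and singly housed mice. The members were 10 genes, taken as every probe set (the group of short probes that reports 1 transcript) annotated to exactly 1 of their symbols. Of these genes, 9 of the 18193 named on the array had such a probe set, with 22 probe sets in all among 45037, and Hsp90ab1 was not analysed here. The inducible cytosolic members were Hspa1a, Hspa1b, Hsph1, Dnajb1, Hsp90aa1 and Hspb1, with 15 probe sets. The constitutive cytosolic member was Hspa8, with 4, and the mitochondrial members were Hspd1 and Hspe1, with 3.

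All mice were male BALB/c, an inbred laboratory strain, and livers came from animals aged 10 weeks. The control group (3 arrays) was not isolated, and the isolated group (3 arrays) was kept at 1 mouse per cage for 30 days as a social stress, with about 2 g of bedding, which was less than in control cages. Both groups entered at 4 weeks of age and were first housed 5 per cage for 10 days. The labels number the samples but do not say whether each array is a separate mouse, so p-values measure the spread between these arrays, which may be partly technical.

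Heat shock proteins are chaperones that keep other proteins folded. In the cytosol, a J-domain protein such as Dnajb1 hands a client to an Hsp70, a nucleotide exchange factor such as Hsph1 releases it, and Hsp90 takes over the maturation of clients that include steroid receptors. Heat and other protein-damaging stress activate the transcription factor HSF1, which binds repeats of GAA and TTC (heat shock elements) and induces the stress-responsive genes, while Hspa8 is made at all times. In the mitochondrial matrix, Hspd1 forms a folding barrel and Hspe1 its lid. In the liver, HSF1 target transcripts also follow the daily rhythm of body temperature, and the time of day of sampling is not given in the sources used here.

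Promoter stretches are shown for the near-identical Hsp70 pair, for Hspb1 and for the mitochondrial pair. They were picked because they hold matches to heat shock elements, which were found in windows of both cytosolic and mitochondrial members but not of all. They are from RefSeq (GRCm38.p6), whose table held promoter windows for 7 of the 10 members, Hspa1a, Hspa1b, Hsph1, Dnajb1, Hspb1, Hspd1 and Hspe1. Each is given 5′ to 3′ on the strand of the gene, and the capitals mark matches to GAANNTTC or TTCNNGAA (both strands, overlapping matches merged).
Hspa1a, chr17:34972187-34972286, minus strand: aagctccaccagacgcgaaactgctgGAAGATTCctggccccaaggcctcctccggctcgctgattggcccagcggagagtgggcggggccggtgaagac
Hspa1b, chr17:34959269-34959368, minus strand: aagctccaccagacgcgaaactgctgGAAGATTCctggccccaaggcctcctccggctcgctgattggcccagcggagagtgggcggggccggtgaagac
Hspb1, chr5:135887789-135887888, plus strand: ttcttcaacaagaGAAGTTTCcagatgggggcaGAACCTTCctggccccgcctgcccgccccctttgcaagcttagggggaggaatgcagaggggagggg
Hspe1, chr1:55088053-55088082, plus strand: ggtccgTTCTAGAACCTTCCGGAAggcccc

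The Hspa1a and Hspa1b stretches were identical at all 100 bases, and at 247 of the 250 bases before the start. Hspd1 and Hspe1 lie head to head. One annotated Hspd1 start is 216 bases from the Hspe1 start, and the capitals of the Hspe1 stretch, an 18-base run of alternating TTC and GAA units, lie in the promoter windows of both genes. A match to 3 alternating units (GAANNTTCNNGAA or TTCNNGAANNTTC) was found in 4 of the 10 member windows, against 0.603% of all 32851 windows of 300 bases. These were both windows of Hsph1, the Hspe1 window and 1 of the 2 Hspd1 windows. Both Hsph1 windows overlap and hold the same match, which lies after the start, and the Hspd1 and Hspe1 matches are the same genome bases. The match to 2 units was found in 7 of the 10, against 15.1% of all windows, and in at least 1 window of every matched gene but Dnajb1. That count includes the same shared stretches and the near-identical Hspa1a and Hspa1b windows, so member windows are not independent in either count. A match describes letters in the window and is not evidence of binding.

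On the array data, 1 array of each group stood apart for these genes. Control replicate 3 gave the highest control value in 19 of the 20 member probe sets that were tested (all but Hspa8 by 1431182_at), and in 60.9% of all 22519 tested probe sets. Isolated replicate 2 gave the highest isolated value in 15 of the 20, against 15.7% of all tested probe sets. The exceptions were both Hspb1 probe sets, both Hspe1 probe sets and the same Hspa8 probe set. Both held at once in 15 of the 20 and in 8.67% of all tested probe sets. This pattern was noticed in these values, so the counts describe the 6 arrays and carry no test. The median signal per array ran from 18.4 to 22.1. The ratio of 3′ to 5′ control probe sets, a sign of RNA quality, ran from 0.689 to 0.719 for Gapdh and from 1.99 to 2.35 for Actb, where isolated replicate 2 was the highest. Its exact two-sided permutation p between groups was 0.2 and 0.8 (the smallest possible is 0.1), and its part in the result was not tested. Over all tested probe sets, the median excess of control replicate 3 over the other controls was 0.20 on the log2 scale, and that of isolated replicate 2 over the other isolated arrays was -0.17.

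**Figure D1:**
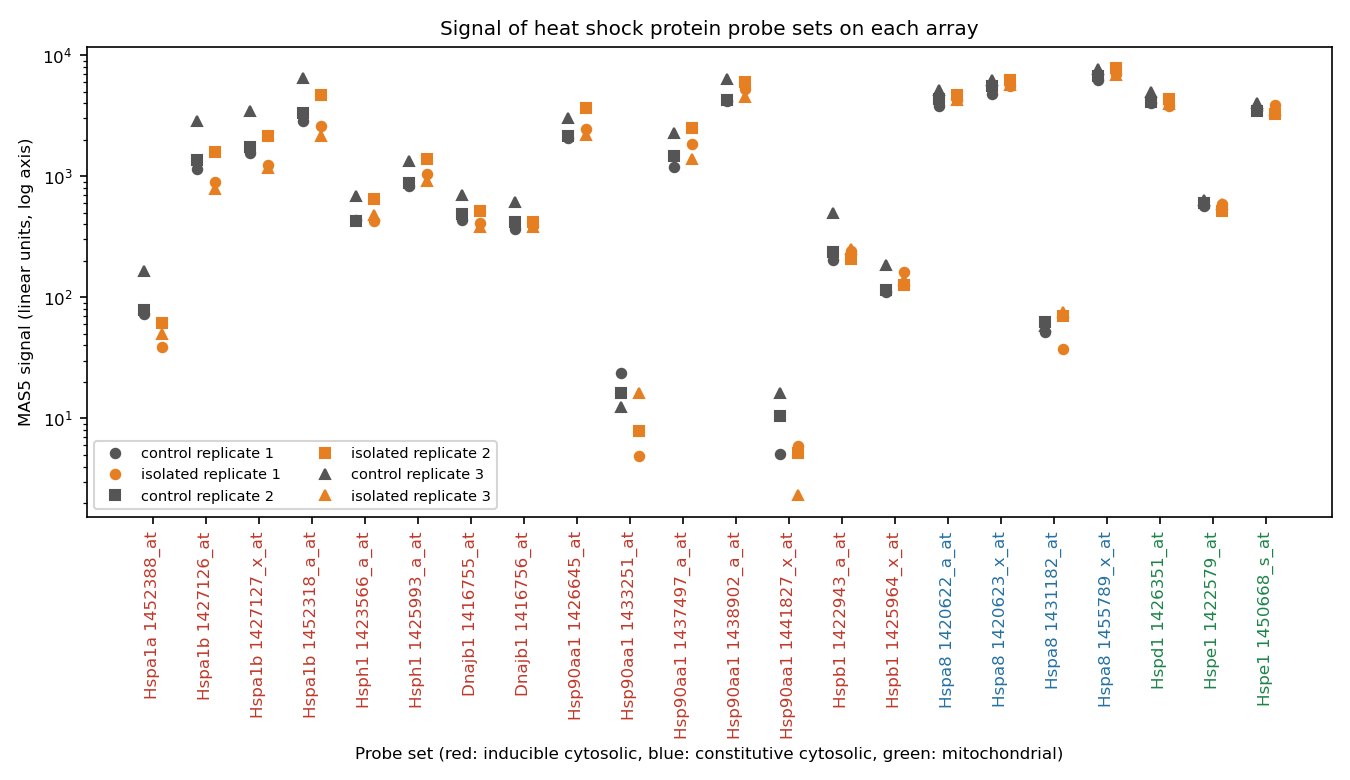
MAS5 signal (linear units on a log axis) of each of the 22 probe sets on each of the 6 arrays, with controls in grey, isolated mice in orange, and circles, squares and triangles for replicates 1, 2 and 3. Control replicate 3 (grey triangle) and isolated replicate 2 (orange square) lie at the top of their groups in most inducible cytosolic probe sets, while the mitochondrial probe sets lie close together; heights of different probe sets are not comparable.

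No member was called different between the groups. Limma called 0 of the 20 tested members at a Benjamini-Hochberg adjusted p under 0.05 over the whole array, against 1.63% of all tested probe sets. By direction, 0 members were called higher and 0 lower, against 0.773% and 0.857% of all tested probe sets. At an unadjusted p under 0.05 there were 3 of 20, all from the Hspa1a and Hspa1b pair, against 11.4% of all tested probe sets. The groups did not overlap in 1 of the 20, against 15.4% of all tested probe sets, and 5.79% with the isolated arrays lower, its direction. The other 2 of the 22 probe sets, both of Hsp90aa1, were below the filter on dim values and were not tested.

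Hspa1a and Hspa1b encode the stress-inducible Hsp70 and carried the lowest changes among the tested probe sets. The single Hspa1a probe set read 72.4, 78.4 and 164 in control replicates 1, 2 and 3 and 38.8, 61.4 and 49.9 in the isolated replicates. Every isolated array was thus below every control, with control replicate 3 at the top by a wide margin. The signal was 105 ± 51.3 against 50.04 ± 11.3 (SD, n = 3 per group). The change was -0.96 ± 0.27 (SE) on the log2(signal + 2) scale (limma adjusted p 0.0902), a 1.95-fold difference. Without control replicate 3 it was -0.60 with a limma adjusted p of 0.372, and without control replicate 1 it was -1.17 and passed, with a limma adjusted p of 0.0376.

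The 3 Hspa1b probe sets had changes of the same sign but their groups overlapped. The probe set 1427126_at read 1150, 1348 and 2866 in control livers and 892, 1593 and 786 in isolated livers. Isolated replicate 2 was above control replicates 1 and 2, and the other isolated arrays were below every control. Its change was -0.66 ± 0.27 (SE; 95% interval -1.22 to -0.11), with a limma adjusted p of 0.305. The change was -0.26 without control replicate 3 and was -0.97 without isolated replicate 2, where it passed with a limma adjusted p of 0.039. Without both of these arrays, a choice made after seeing the data, it was -0.57 with a limma adjusted p of 0.0905.

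The second Hspa1b probe set, 1427127_x_at, read 1554, 1746 and 3445 in control livers and 1242, 2166 and 1172 in isolated livers, a change of -0.52 (limma adjusted p 0.411). The third, 1452318_a_at, read 2847, 3299 and 6485 against 2574, 4724 and 2127, a change of -0.41 (limma adjusted p 0.609). All 3 thus ranked the same 2 arrays first, with control replicate 3 above isolated replicate 2. Without control replicate 3 the changes of these probe sets were -0.17 and -0.05. Hspa1a and Hspa1b are near-identical copies, so how far their probe sets report 1 gene or both is uncertain, and the suffix _x_at marks probes that can bind other transcripts.

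Dnajb1, the J-domain partner of Hsp70, read 434, 492 and 694 in control livers and 409, 516 and 383 in isolated livers by probe set 1416755_at. The highest control stood above every isolated array, while the other values interleaved. The change was -0.29 (95% interval -0.68 to 0.10; limma adjusted p 0.633). By probe set 1416756_at it was -0.19 (limma adjusted p 0.796), and 0.02 without control replicate 3.

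Hsph1, the Hsp110 exchange factor, read 829, 871 and 1330 in control livers and 1036, 1381 and 918 in isolated livers by probe set 1425993_a_at. The top array of each group was nearly level here, unlike in Hspa1b. The change was 0.15 (95% interval -0.24 to 0.54; limma adjusted p 0.856). Probe set 1423566_a_at read 433, 427 and 683 against 426, 646 and 482, a change of 0.02 (limma adjusted p 0.985). The sign of both turned without isolated replicate 2, to -0.02 and -0.15.

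Hsp90aa1, the stress-responsive Hsp90 gene, had 3 bright probe sets with changes above 0. Probe set 1438902_a_at read 4185, 4273 and 6407 in control livers and 5239, 5941 and 4509 in isolated livers, a change of 0.10 (limma adjusted p 0.895). The other 2 bright probe sets had changes of 0.18 (1426645_at, limma adjusted p 0.805) and 0.23 (1437497_a_at, limma adjusted p 0.786). Their highest array was isolated replicate 2, at 3634 and 2501, against 3002 and 2252 in control replicate 3. In 1438902_a_at isolated replicate 2 was second to control replicate 3, as in all 3 Hspa1b probe sets. The untested probe sets 1433251_at and 1441827_x_at lay at signals of 2.31 to 23.7, where MAS5 values are noisy, and had changes of -0.82 and -0.91 against the direction of the bright ones.

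Hspb1, a small heat shock protein that holds unfolded proteins without ATP, had an isolated order unlike the other inducible members. Probe set 1422943_a_at read 202, 235 and 493 in control livers and 241, 206 and 249 in isolated livers. Control replicate 3 was again far above the rest, but isolated replicate 2 was the lowest of its group. The change was -0.31 (95% interval -0.82 to 0.20; limma adjusted p 0.733), and 0.08 without control replicate 3. Probe set 1425964_x_at read 110, 114 and 183 against 160, 127 and 139, a change of 0.10 (limma adjusted p 0.930), also with isolated replicate 2 the lowest of its group.

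Hspa8, the constitutive Hsp70, showed little spread in its 3 bright probe sets. The probe set 1455789_x_at read 6190, 6738 and 7620 in control livers and 6922, 7772 and 6793 in isolated livers. Control replicates 1 and 2 were below every isolated array, and the groups overlapped through control replicate 3. The change was 0.07 (95% interval -0.18 to 0.31; limma adjusted p 0.910). The other 3 probe sets had changes of 0.09, 0.04 and -0.003, with limma adjusted p-values of 0.874 to 0.997. The dimmest, 1431182_at, read 51.4, 62.1 and 57.8 against 37.5, 69.95 and 75.9, with the widest interval, from -0.50 to 0.58.

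The mitochondrial pair also had small changes. Hspd1 read 3999, 4095 and 4948 in control livers and 3815, 4361 and 3914 in isolated livers, a change of -0.11 (95% interval -0.37 to 0.16; limma adjusted p 0.847). It ranked control replicate 3 and isolated replicate 2 first, in the order of Hspa1b, but with a far smaller excess. Hspe1 read 3503, 3427 and 3997 against 3906, 3268 and 3505 by probe set 1450668_s_at, a change of -0.03 (95% interval -0.29 to 0.23; limma adjusted p 0.966). Its other probe set, 1422579_at, read 567, 595 and 633 against 586, 511 and 584, a change of -0.10 (limma adjusted p 0.897). Isolated replicate 2 was the lowest isolated array in both Hspe1 probe sets and the highest in Hspd1. Both genes have the printed heat shock element in a promoter window. The suffix _s_at marks a probe set that can report more than 1 transcript.

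By class, the median change over all probe sets was -0.29 for the inducible cytosolic members (15), 0.05 for the constitutive cytosolic member (4) and -0.10 for the mitochondrial members (3), against 0.006 over all probe sets of the array. Over tested probe sets only, the inducible median was -0.19, with 7 of 13 below 0. These medians are given side by side without a test of their difference. The inducible median was 0.02 without control replicate 3, and -0.03 without control replicate 3 and isolated replicate 2. Without control replicate 3, Hspa1a had a change of -0.60 and the Hspa1b probe sets -0.26, -0.17 and -0.05. All were below 0, the last nearly at 0, and none was called (limma adjusted p 0.372 to 0.964).

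**Figure D2:**
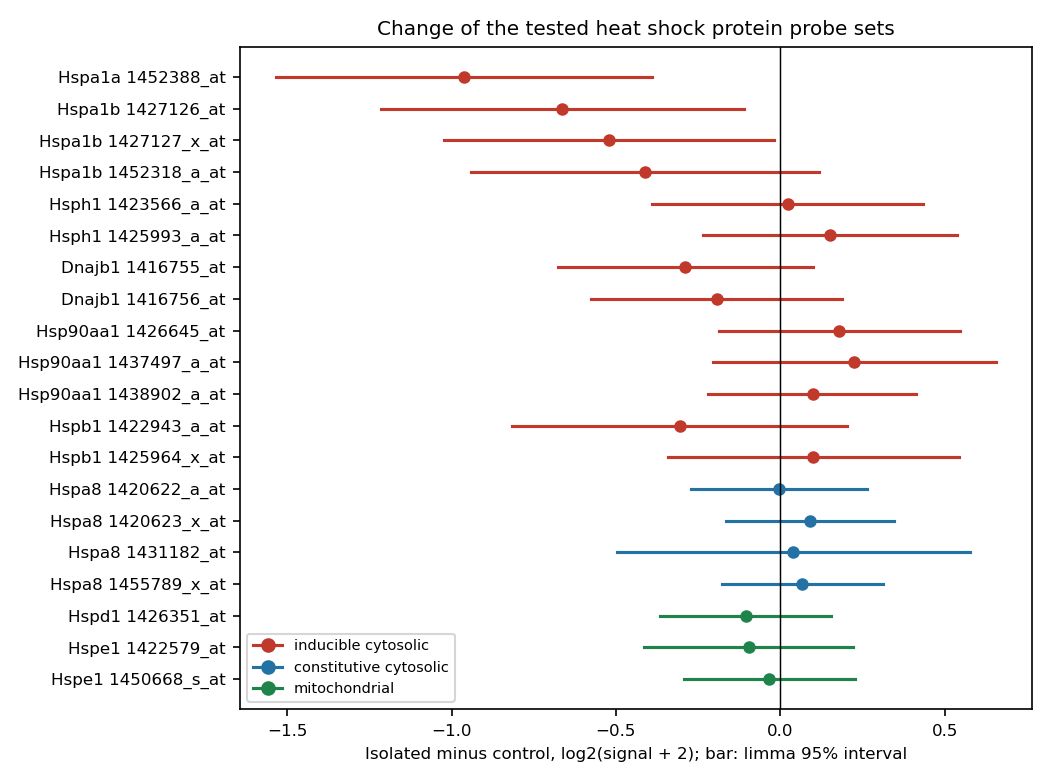
Change of each of the 20 tested probe sets, isolated minus control on the log2(signal + 2) scale, with limma 95% intervals as bars and colours for the 3 classes. The intervals of Hspa1a and of 2 Hspa1b probe sets lie below 0 before adjustment, from -0.96 to -0.52 at their centres, and the other 17 cross 0.

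The genes also differed in how much their values varied within a group, though not cleanly by class, given here as a description. The SD within groups of log2 values, pooled over both groups, was 0.56 to 0.63 for the Hspa1b probe sets and 0.51 for Hspa1a, against a median of 0.25 over all tested probe sets. That of 1427126_at exceeded the SD of 94.8% of tested probe sets. Hsph1 had 0.34 and 0.35, Dnajb1 0.27 and 0.29, and the bright Hsp90aa1 probe sets 0.28 to 0.44. Hspb1 had 0.49 and 0.31. The bright Hspa8 probe sets had 0.13 to 0.17 and its dim one, 1431182_at, 0.39, while Hspd1 had 0.14 and the Hspe1 probe sets 0.098 and 0.13. The SD of Hspe1 by 1422579_at exceeded that of 3.19% of tested probe sets. SDs of dim and bright probe sets are not alike in general, but the Hspa1b and Hspd1 probe sets all had means above those of at least 94.2% of tested probe sets.

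The size of the excess on the 2 arrays that stood apart was then read by class. Control replicate 3 exceeded the mean of the other controls by 0.52 to 1.20 on the log2 scale in the 13 inducible probe sets. The excess was 0.03 to 0.35 in Hspa8 and 0.12 to 0.29 in the mitochondrial pair. Isolated replicate 2 exceeded the other isolated arrays by a median of 0.50 in the inducible probe sets, with a range from -0.24 in Hspb1 to 1.01 in Hspa1b. In Hspa8 its excess was 0.15 to 0.37. In the mitochondrial members it was 0.17 in Hspd1, and -0.20 and -0.18 in Hspe1.

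**Figure D3:**
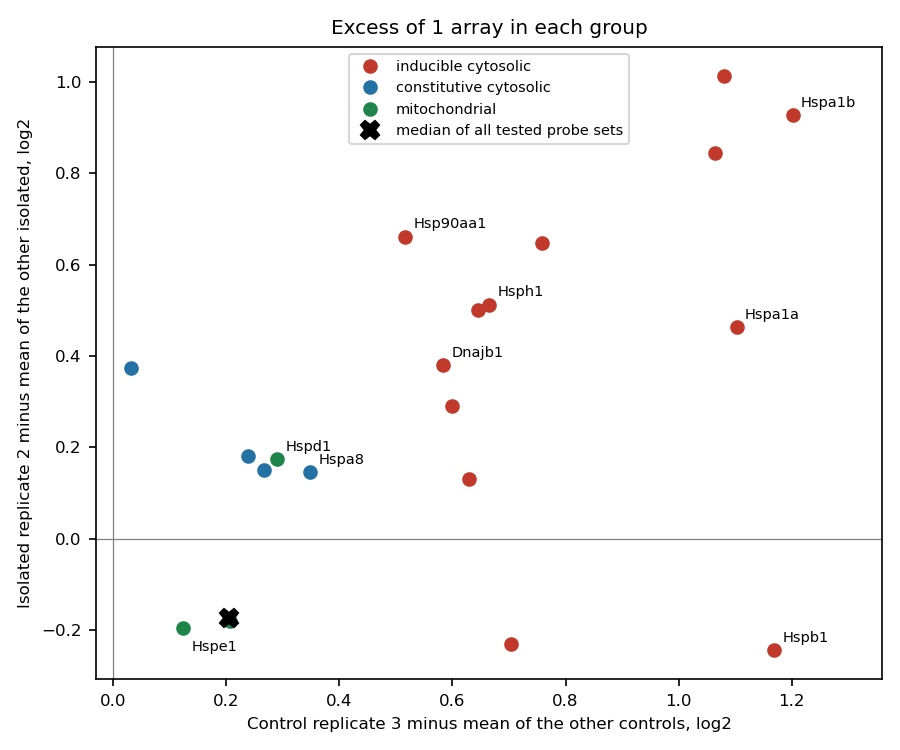
Excess of control replicate 3 over the mean of the other controls (horizontal, log2) against the excess of isolated replicate 2 over the mean of the other isolated arrays (vertical, log2) for the 20 tested probe sets, with 1 label per gene and a cross for the median of all tested probe sets (0.20 and -0.17). Hspa1b lies at the upper right, Hspa8 and the mitochondrial members lie at the lower left, and Hspb1 is high on the horizontal axis alone.

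Markers of cell types were read on the same arrays. In none of the 9 lists checked was the summed signal the highest of its group on both arrays. A sum follows the brightest genes of its list, so dim markers hardly move it. Limma called no tested marker, with the lowest adjusted p in the adipocyte list (0.0578). Only 2 adipocyte, 2 cholangiocyte, 1 erythroid, 1 lymphocyte and 0 muscle markers were tested, so the lack of calls says little for those lists. Of 58 single markers (36 of them tested), 5 did have both arrays highest, against 8.67% of all tested probe sets, so the markers did not stand out by this count. They were Acta2, Adipoq, Krt19, Hba-a1 and Slc4a1. Adipoq (3.78 to 59.5), Hba-a1 (1.90 to 21.4) and Slc4a1 (9.62 to 28.2) were dim on some or all arrays. Acta2, a smooth muscle and activated stellate cell gene, read 73.9, 110 and 192 in control livers and 82.0, 320 and 111 in isolated livers. No other gene of its stellate cell and fibroblast list had both arrays highest. That list summed to 2826, 3713 and 2849 in control livers and 2984, 3715 and 3474 in isolated livers. The hepatocyte list summed to 77070 to 85540 on every array, with isolated replicate 2 the lowest. Muscle markers, checked because muscle is rich in Hspb1, were below the filter for all 6 genes and summed to 76.0 in control replicate 3 against 43.2 and 101 in the other controls. The 6 measured adipocyte markers summed to 160, 267 and 204 in control livers and 244, 414 and 525 in isolated livers. None of the markers is listed at 0, since MAS5 gives a value to every probe set. Their part in the result was not tested, and in bulk liver fewer cells of a type and less RNA per cell cannot be told apart.

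Genes whose log2 values were most like those of 3 members over the 6 arrays were taken by Pearson correlation, as a description, among 10977 other genes. For Hspa1b they were Cdc42bpa (r = 0.976), Serpinh1 (0.963) and Slc12a2 (0.960). Cdc42bpa read 68.2, 65.5 and 113 in control livers and 56.3, 81.2 and 51.5 in isolated livers, the same first and second arrays. For Hspa8 they were Sart3 (0.991), Rbm8a (0.982) and Srebf2 (0.980), and for Hspd1 they were Slc5a3 (0.994), Bzw2 (0.981) and Serpinh1 (0.978). Slc5a3 read 207, 229 and 406 in control livers and 194, 269 and 194 in isolated livers. Among the members themselves, by the brightest probe set of each gene, Hspd1 correlated with Hspa1b at 0.954 and with Dnajb1 at 0.970, but with its partner Hspe1 at 0.269. Hspa8 correlated with Hsph1 at 0.962 and with Hspa1a at 0.322. All these values share the same 6 arrays, and the highest of so many correlations over 6 points is no finding.

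Other chaperone genes were read from lists, with the brightest tested probe set per gene. The share of such probe sets called was 1.75% over all 10986 genes. Of 16 genes of the cytosolic Hsp70 system (further Hsp70s, J-domain proteins and exchange factors), 0 passed in either direction, and 0 were under an unadjusted limma p of 0.05. Their median change was 0.05, as over all genes. The HSF1 target Bag3, an exchange factor, read 177, 225 and 290 in control livers and 269, 384 and 241 in isolated livers, a change of 0.37 (limma adjusted p 0.559), again with control replicate 3 and isolated replicate 2 first in their groups. Hspa14 had a change of 0.38 (limma adjusted p 0.494; -0.14 by its other probe set) and Dnajb2 0.37 (0.455).

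Of 8 Hsp90 cochaperones, 0 rose and 1 fell. Fkbp5, an immunophilin that binds Hsp90 in steroid receptor complexes and is induced by glucocorticoids, read 531, 467 and 586 in control livers and 310, 262 and 324 in isolated livers. The groups did not overlap, and the fall was 1.76-fold (limma adjusted p 0.0113). Its other tested probe set, 1448231_at, fell by 1.21 on the log2 scale (limma adjusted p 0.00166). The first call was lost without control replicate 3 (limma adjusted p 0.0620), without control replicate 3 and isolated replicate 2 together (0.112, with a change of -0.65) and in a fit without the intensity trend (0.167). Fkbp4, a related immunophilin, had a change of 0.28 (limma adjusted p 0.602; -0.24 by its other probe set). Unc45a, a myosin-folding cochaperone, had a change of 0.37 (limma adjusted p 0.567), and its other tested probe sets 0.28 and -0.38.

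Of 14 other mitochondrial chaperones and proteases, 0 rose and 1 fell, with a median change of 0.02. Grpel2, a nucleotide exchange factor of mitochondrial Hsp70, read 330, 418 and 611 in control livers and 183, 171 and 225 in isolated livers. Every isolated array was below every control, and the fall was 2.28-fold, or -1.19 ± 0.21 (SE) on the log2 scale (limma adjusted p 0.0026). Its other probe set had a change of -0.80 (limma adjusted p 0.0884). The call was lost without the intensity trend (limma adjusted p 0.15) and without control replicate 3 and isolated replicate 2 together (0.0797), but held in each fit with 1 array left out. Clpx, the unfoldase of a matrix protease, read 714, 967 and 934 against 608, 660 and 604, a change of -0.47 (limma adjusted p 0.178). Its second probe set, 1439342_at, singled out after its values were seen, fell by 1.26 on the log2 scale (limma adjusted p 0.00651). Afg3l2, a membrane protease, had a change of 0.19 (limma adjusted p 0.804), and its other tested probe sets 0.24 and -0.20.

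The TRiC, small heat shock protein and heat shock factor lists had 0 calls by limma and, by the brightest probe set, 0 genes under an unadjusted p of 0.05. Of the 8 subunits of TRiC, the cytosolic chaperonin that folds actin and tubulin, the median change was 0.04, with the largest at 0.22 for Cct3 (limma adjusted p 0.646), followed by Cct6a at 0.14 and Cct2 at 0.08. The other 5 Cct3 probe sets disagreed, from -0.41 to 0.39, with none called. In the 4 tested small heat shock proteins, Cryab had a change of 0.15 (0.74 by its other probe set, limma adjusted p 0.582) and Hspb2 0.12. Hspb8 had a change of -0.11, and its other tested probe sets -0.34 and 0.06. Among the 3 tested heat shock factors and cofactors, the changes were 0.12 for Hsf4, 0.03 for Hsbp1, a negative regulator of HSF1, and 0.007 for Hsf2. Hsf1 itself was not among them. Mean signals in control and isolated livers were low for Hsf2 (21.3 and 22.0), Hsf4 (27.4 and 29.8) and Hspb2 (22.2 and 23.6). Cirbp, a cold-inducible RNA binding protein, read 22.1 ± 6.03 and 20.1 ± 6.48 (SD, n = 3 per group; limma adjusted p 0.949), close to the lowest signal tested, and Srsf5, listed with it, had a change of 0.39 (limma adjusted p 0.339).

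Chaperones of the endoplasmic reticulum were read for comparison, with no test against the members. Of the 11 genes, 1 rose and 0 fell, 10 had changes above 0, and the median was 0.32. Hspa5, the Hsp70 of that compartment, read 5364, 5573 and 5649 in control livers and 6879, 9267 and 7658 in isolated livers, a rise of 0.51 ± 0.12 (SE; limma adjusted p 0.0339), where Hspa8 had at most 0.09. The difference between the genes was not tested. The change was 0.39 to 0.61 with 1 array left out, but the call was lost with each array but isolated replicate 1 left out in turn (limma adjusted p 0.0732 to 0.126). It was also lost with median centring (0.0504), with quantile normalization (0.0585), without a filter (0.346) and without the intensity trend (0.36). Settings where the call held included control replicate 3 and isolated replicate 2 left out together (limma adjusted p 0.0289), the replicate block (0.0175) and a robust trend (0.0126). Of the other tested Hspa5 probe sets, 1427464_s_at rose by 0.60 (limma adjusted p 0.0146) and 1447824_x_at had a change of 0.50 (0.317). Dnajb9, a J-domain protein, had a change of 0.58 (limma adjusted p 0.0635). It passed with a pseudocount of 16 (limma adjusted p 0.0487), median centring (0.0412), a robust trend (0.037), the replicate block (0.0134), only the upper 25% tested (0.0126) and without isolated replicate 1 (0.00667). Hyou1 had a change of 0.45 (limma adjusted p 0.199). Control replicate 3 and isolated replicate 2 were both the highest of their groups in 9 of these 11 genes. The same held in 5 of 16 genes of the cytosolic Hsp70 system, 3 of 8 Hsp90 cochaperones, 1 of 4 small heat shock proteins, and 0 of 8 in TRiC, 0 of 14 in the mitochondrial list, 0 of 3 heat shock factors and cofactors and 0 of 2 in the list of Cirbp.

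**Figure D4:**
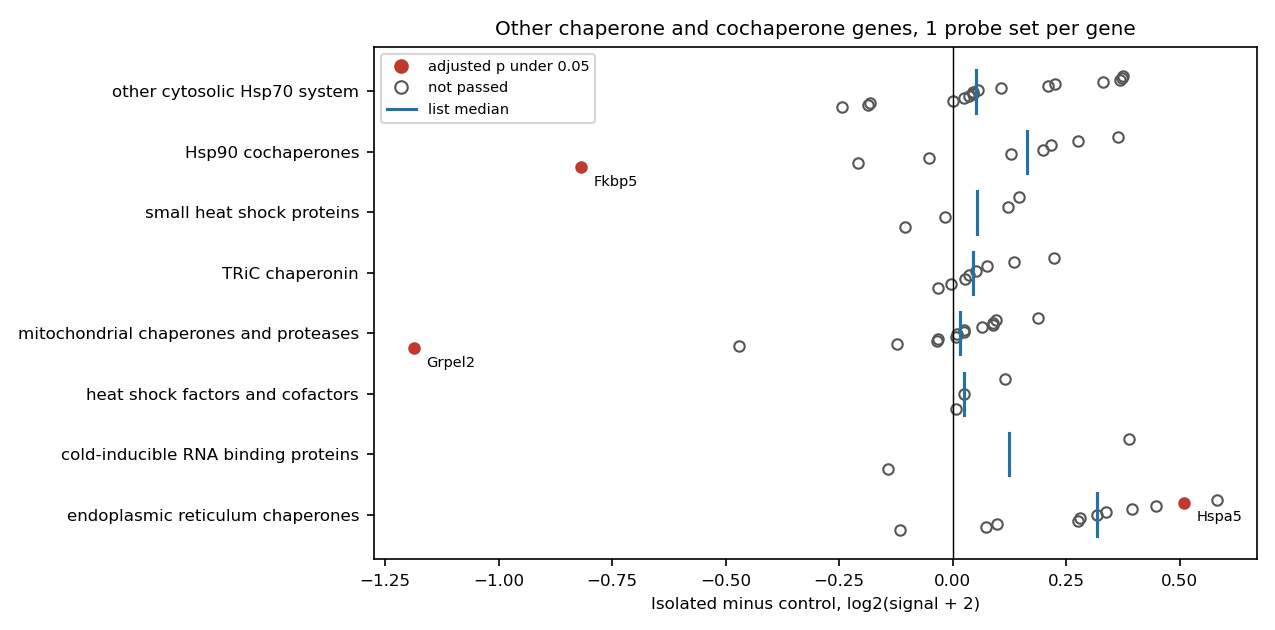
Change of each gene of the other chaperone lists, isolated minus control on the log2(signal + 2) scale, 1 probe set per gene, with filled points for a limma adjusted p under 0.05 and a bar for each list's median. Fkbp5 at -0.82, Grpel2 at -1.19 and Hspa5 at 0.51 are the 3 filled points.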

How the data were processed

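Liver RNA was measured on 6 Affymetrix arrays, 3 control and 3 isolated. The deposited values are MAS5 intensities per the submitters' processing notes, a linear signal per probe set. The sources used here give no scaling target, version or detection calls. The 64 control probe sets were set apart, leaving 45037. Symbols came from the platform annotation (34945 probe sets with 1, 932 with several, 9160 with none). Values were analysed as log2(signal + 2), so changes of dim probe sets are understated, and the upper 50% by mean were tested (22519, a floor at a mean signal of about 17.95). Limma 3.58.1 in R 4.3.3 fitted 2 groups with an intensity trend in the variance, two-sided, with Benjamini-Hochberg adjustment. The procedure was tested on simulated data. The members, classes and gene lists were chosen with earlier results of these data known. Every member probe set is described; of each other list, called genes and the 3 largest changes are named. Same-numbered arrays did not deviate together (correlations 0.008, 0.044 and 0.005), and the main fit did not treat numbers as pairs. The labels do not say whether equal numbers are pairs, and correlations over so few arrays cannot settle it. The number of arrays limits the precision. Figures used matplotlib 3.10.9.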

Additional observations from a re-analysis of the deposited data

How the results depend on the processing

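Over all tested probe sets, 174 were called higher and 193 lower in the isolated group than in the control group. These counts were 81 and 101 without a filter, 15 and 16 without the intensity trend, and 103 and 62 without control replicate 3 and isolated replicate 2 together. They were 258 and 183 with median centring, against 148 and 242 with quantile normalization, so the balance of directions depended on the scaling. With the replicate number as a block, 265 were higher and 248 lower, and 0 members were called. With 1 array left out, they ran from 97 to 200 higher (lowest without isolated replicate 3) and from 82 to 246 lower (lowest without control replicate 3), and called members from 0 to 1 lower. Those were Hspa1a without control replicate 1 and Hspa1b (1427126_at) without isolated replicate 2. The class medians moved by less than their SD between arrays within groups in the settings tried (0.33 inducible, 0.16 constitutive, 0.12 mitochondrial). That SD includes control replicate 3, so it is a wide yardstick and does not show the medians to be stable. The inducible median turned from -0.29 to 0.02 without control replicate 3. The constitutive median turned from 0.05 to -0.02 without control replicate 1 and also without isolated replicate 2.

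Signs of small, uncalled changes turned in some settings. With median centring, Hspa8 (1420622_a_at) was 0.05 and Hspe1 (1450668_s_at) 0.02. With quantile normalization, Hsph1 (1423566_a_at) was -0.033, Hspa8 (1420622_a_at) 0.009 and Hsbp1 -0.035. Without the 2 arrays together, Hspb1 (1422943_a_at) was 0.165, Hspa8 0.064 (1420622_a_at) and -0.075 (1431182_at), Hspe1 0.01 (1422579_at) and 0.095 (1450668_s_at), Hspb8 0.096, Cryab -0.018 and Cirbp 0.125. With 1 array left out, Hsph1 ran from -0.148 to 0.244 and from -0.017 to 0.366, Dnajb1 (1416756_at) from -0.341 to 0.017, and Hsp90aa1 from -0.042 to 0.351 and from -0.01 to 0.297. Hspb1 ran from -0.555 to 0.083 and from -0.03 to 0.334, Hspe1 (1450668_s_at) from -0.103 to 0.035, and Hspa8 from -0.106 to 0.112, -0.014 to 0.179, -0.143 to 0.346 and -0.003 to 0.147. Hspb2 ran from -0.202 to 0.455, Hspb8 from -0.297 to 0.089, Cryab from -0.085 to 0.267, Hsf2 from -0.157 to 0.272, Hsbp1 from -0.043 to 0.139 and Cirbp from -0.33 to 0.115. The cause was not tested.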
